A study of Mus musculus with 4 samples.

Results

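The hedgehog genes described here are the ligand gene Shh, the receptor and co-receptor genes Ptch1, Smo, Hhip, Boc and Cdon, and the GLI transcription factor genes Gli1, Gli2 and Gli3. They are 9 of the 52636 genes in the table, chosen by symbol through their mouse Ensembl identifiers in GENCODE M21 (build mm10). All 9 were measured in every library and passed the filter on low values. Total lung RNA of C57BL/6 mice was sequenced at embryonic day 14.5, in 2 wild-type libraries (control 1 and 2) and in 2 libraries with the genotype Yap conditional knockout (Yap CKO 1 and 2). The series title places the knockout in the epithelium, and the labels name neither the Cre driver nor the deleted exons. They also do not say whether 1 library is 1 embryo or a pool, so a p-value reflects no more than the spread of these samples. The controls differed in Xist, a transcript of the inactive X chromosome (42.6 in control 1 and 46726 in control 2). They were thus not repeat libraries of the same tissue. Between the knockouts the spread may be technical.

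Hedgehog ligands are secreted proteins that act on neighbouring cells. In the developing lung the epithelium makes Shh, and the surrounding mesenchyme, which gives rise to smooth muscle and connective tissue, receives it. Without ligand the receptor Patched (Ptch1) holds the membrane protein Smoothened (Smo) inactive, and GLI proteins, above all Gli3, are cut into repressors. With ligand Smo is released and GLI activators switch on targets, among which Ptch1, Hhip and Gli1 are the classical ones, so that the pathway induces its own antagonists. A whole-lung library mixes the epithelium that sends the signal with the mesenchyme that receives it. In such libraries fewer cells of a type and less RNA per cell cannot be told apart.

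Between 17756301 and 21333878 reads were counted to genes in each library. The epithelial marker genes summed to 22010 to 26555 normalized counts and the mesenchymal ones to 144218 to 190229, so both tissues were present in each library. Some libraries stood apart in another tissue or in sex. Heart muscle RNA (15 marker genes, summed) reached 1800 and 54045 normalized counts in the first and the second control, and 12173 and 2148 in the first and the second knockout. Xist, which is expressed from the inactive X chromosome of female cells, was at 42.6 in control 1 and at 42729 to 50045 in the other libraries. Control 1 thus held little female tissue, while the other libraries held some. Sex was therefore not balanced between the groups, and its part in the differences was not tested. Yap1 overlapped between the groups, at 5686 and 3467 in the controls against 3209 and 4483 in the knockouts (log2 difference -0.23, limma adjusted p = 0.683). The level of Yap1 over the whole gene and the whole lung does not check the labels, so "control" and "Yap CKO" below name libraries by their label.

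RefSeq promoters (GRCm38.p6, 250 bases before to 50 after the annotated start) were found for 6 of the 9 genes, namely Ptch1, Smo, Hhip, Cdon, Gli2 and Gli3. The 250 bases before the start are shown for Hhip and Ptch1, the promoters held here of genes that fell, and for Gli2, whose promoter was the only one of the 6 to hold the core of the GLI binding motif. They are written 5′ to 3′ on the strand of the gene, and capitals mark that core.
Hhip (chr8:80058009-80058258, minus strand): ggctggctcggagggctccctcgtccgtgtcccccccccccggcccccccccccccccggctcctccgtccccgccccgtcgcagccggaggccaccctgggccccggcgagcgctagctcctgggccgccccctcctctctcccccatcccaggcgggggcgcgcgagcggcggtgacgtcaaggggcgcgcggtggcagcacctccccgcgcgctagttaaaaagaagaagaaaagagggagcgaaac
Ptch1 (chr13:63565736-63565985, minus strand): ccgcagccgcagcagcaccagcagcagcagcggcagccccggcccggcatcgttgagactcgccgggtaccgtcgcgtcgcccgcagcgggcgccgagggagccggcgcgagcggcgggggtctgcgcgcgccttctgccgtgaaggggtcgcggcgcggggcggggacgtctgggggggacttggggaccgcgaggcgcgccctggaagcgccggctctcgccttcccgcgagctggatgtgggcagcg
Gli2 (chr1:119053620-119053869, minus strand): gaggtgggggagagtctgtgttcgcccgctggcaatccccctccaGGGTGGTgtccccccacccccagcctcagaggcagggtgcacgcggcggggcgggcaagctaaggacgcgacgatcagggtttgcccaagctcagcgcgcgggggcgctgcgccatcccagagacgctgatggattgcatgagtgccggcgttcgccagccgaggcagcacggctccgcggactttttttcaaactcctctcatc
The 9-letter GLI motif GACCACCCA was searched on both strands and was in none of the 6 promoters, against 83 of 32851 promoters of the same length (0.253%). Its core ACCACCC, which lies within the longer motif, was in Gli2 alone, read as GGGTGGT on the strand of the gene, and in 4.61% of all promoters. The TEAD motif CATTCC, the sequence bound by the DNA-binding partners of Yap, was in the Smo promoter alone among the 6 and in 14.7% of all promoters. The windows of Hhip and Ptch1 were rich in G and C (73.7% and 76.3% against a median of 52.7% over all promoters). The RefSeq starts used for Ptch1, Cdon and Gli3 lie within longer GENCODE genes, so other starts of these genes were not searched. Matches of letters in these windows are a description and do not show binding.

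Shh fell, and of the receptor and GLI genes Hhip and Ptch1 fell while the GLI genes and Smo did not pass the test. Values were compared as log2(normalized count + 1) with limma, and p-values were adjusted over all 19472 genes tested (Benjamini-Hochberg). Of the 9 genes 3 fell, 0 rose and 6 did not pass (at an unadjusted p under 0.05, 3 were lower and 2 higher). Here and below, counts at an unadjusted p are a description, since the share over all tested genes is not given. By limma 1.15% of all tested genes fell and 1.19% rose (2.33% in either direction). With edgeR 2 of the 9 fell and 0 rose, and with DESeq2 3 fell and 1 rose. Over all genes limma called 454, edgeR 404 and DESeq2 1037. The median log2 change was -0.09 over the 9 genes and -0.005 over all tested genes. The 3 falls had been known from earlier results of these data when the genes were chosen, so their count is a description.

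**Figure D1:**
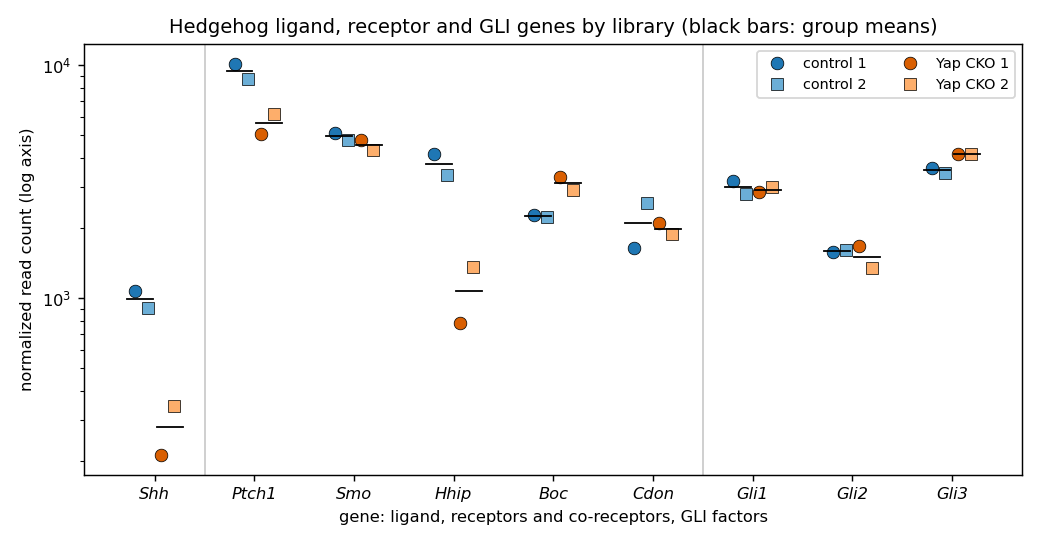
Normalized read count (log axis) of the 9 hedgehog genes, 1 point per library, with the group means as black bars (n = 2 per group). Shh, Ptch1 and Hhip lie lower in both Yap CKO libraries than in either control, Boc and Gli3 lie higher, and the groups overlap for Smo, Cdon, Gli1 and Gli2.

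The ligand gene Shh (ENSMUSG00000002633, mm10 chromosome 5, 28456815 to 28467256) stood at 1069 and 906 normalized counts in the controls, and at 212 and 345 in the first and the second knockout. Both knockout libraries lay below both controls, and Yap CKO 1 was the lowest. The means were 988 ± 115 in control and 278 ± 94.3 in Yap CKO (SD, n = 2), which is 28.2% of the control level. The log2 change was -1.86 ± 0.23 (SE), with a 95% interval of -2.42 to -1.31 and an adjusted p of 0.0181 (limma). Depth did not limit this value, since Shh was counted from 220 to 1103 reads per library. Shh shares 12.7% and 15.7% of its exonic bases with a pair of antisense transcripts, Gm26894 (17.7 to 44.4 normalized counts) and 9530036O11Rik (13.6 to 15.9). The sources used here do not give the strand setting of the counting, so reads in the shared bases cannot be assigned to either strand.

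Shh differed more between the groups than any of 18 general epithelial marker genes, whose log2 differences ranged from -0.60 to 0.48 with a median of -0.23. Of these markers 14 were lower and 4 higher, and 0 passed limma's test (edgeR called 0 and DESeq2 4, and 11 had an unadjusted p under 0.05). Over all tested genes 9858 were lower and 9614 higher, and edgeR called 404 and DESeq2 1037. No share over all genes is given for the unadjusted cut, so the 11 cannot be set against it. Epcam, a surface protein of epithelial cells, was at 2676 and 2145 in the controls and at 2461 and 2734 in Yap CKO. Per read of Epcam there were 0.40 and 0.423 reads of Shh in the controls, and 0.0859 and 0.126 in the knockouts. Against Nkx2-1, the lung identity factor of the epithelium, the ratios were 0.321 and 0.329 in control and 0.0823 and 0.122 in Yap CKO. Against Cdh1 they were 0.279 and 0.241 in control and 0.0699 and 0.108 in Yap CKO. Epcam was among the 4 higher markers, and Nkx2-1 and Cdh1 were among the 14 lower ones. On the log2 scale, Shh minus the mean of the 18 markers gave 0.05 and 0.01 for the controls, then -1.96 and -1.29 for the knockouts. That is a difference of -1.66 with groups that did not overlap (exact permutation test, two-sided, p = 0.333, the smallest that 2 against 2 samples can give). The fall of Shh was known beforehand and the marker mean differed by only -0.20, so this p adds nothing to the values. Markers of gut epithelium also differed between these libraries. The 10 gut genes summed to 146 and 108 normalized counts in control and to 2783 and 1983 in Yap CKO, with Guca2a, Reg4, Tff3 and Cdx2 at 0 in both controls. Of the 8 tested gut genes 6 rose, beside 1.19% of all tested genes. The 8 liver markers summed to 29 and 84 in control and to 1646 and 903 in Yap CKO, and all 4 that were tested rose (Afp, Alb, Ttr and Apoa1). Nearly all of these gut and liver calls ended without either knockout library, where few genes over all genes passed. With single libraries left out the median log2 change ranged from 5.35 to 6.99 for gut and from 4.16 to 5.23 for liver. The part of these transcripts in the level of Shh was not tested.

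Per length, the other hedgehog ligand genes were far lower than Shh. Shh was at 347 normalized counts per kilobase of exonic sequence in control and 97.7 in Yap CKO, Dhh at 3.92 and 7.19, and Ihh at 1.12 and 2.94. Dhh, which nerve sheath cells and the testis use, was at 2.91 normalized counts in the first control and 31.6 in the second, against 26.0 and 37.3 in the knockouts (log2 difference 1.51, adjusted p = 0.442, limma). Control 1 was the low library, and without it the difference was -0.02. The summed level of the 6 neural markers was also lowest in control 1, at 537 against 749 to 803, although 1 of them, Ret, was lower in the knockouts (153 and 192) than in control 1 (260). The part of nerve tissue in Dhh was not tested. Ihh, the ligand of cartilage and gut, stayed below the filter, with 1 and 5 reads in the controls and 7 and 12 in the knockouts. Shh therefore held most of the hedgehog ligand reads in every library, in Yap CKO too.

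Of the surface proteins that bind the ligand, Hhip changed most. Hhip (ENSMUSG00000064325, chromosome 8, 79965851 to 80058006), a decoy that captures hedgehog ligand and is itself a target of the pathway, was at 4162 and 3381 in the controls, then at 784 and 1367 in the first and the second knockout. As with Shh, the groups lay apart and Yap CKO 1 was the lowest. It fell from 3771 ± 553 to 1075 ± 412 (SD, n = 2), with a log2 change of -1.86 ± 0.25 (95% interval -2.46 to -1.25, adjusted p = 0.0231, limma). Ptch1 (ENSMUSG00000021466, chromosome 13, 63508328 to 63573598), the receptor and a target as well, was at 10176 and 8744 in control and at 5084 and 6169 in Yap CKO. It fell from 9460 ± 1013 to 5626 ± 767, to 59.5% of control, with a log2 change of -0.75 ± 0.13 (95% interval -1.07 to -0.44, adjusted p = 0.0435). The intervals of Ptch1 and Hhip do not overlap, although their difference was not fitted across all genes.

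**Figure D2:**
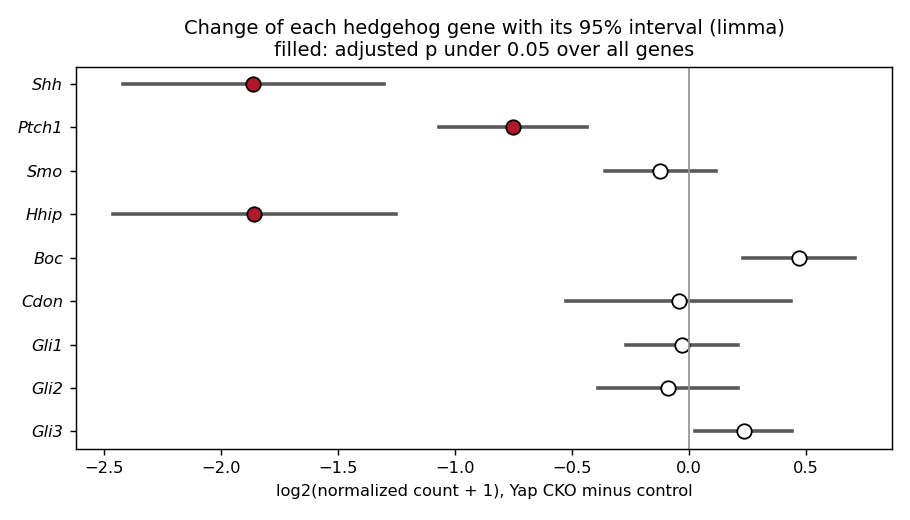
Log2 change of each hedgehog gene, knockout minus control (n = 2 per group), on the horizontal axis with its 95% interval from limma, filled where the adjusted p over all genes was under 0.05. Shh at -1.86, Hhip at -1.86 and Ptch1 at -0.75 are filled, while Gli1 sits at -0.03 with an interval of -0.27 to 0.21.

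Smo and the co-receptor genes held other patterns. Smo (ENSMUSG00000001761, chromosome 6, 29735503 to 29761365), the transducer that Ptch1 restrains, was at 5117 and 4783 in control and at 4783 and 4308 in Yap CKO. Its log2 difference was -0.12 (95% interval -0.36 to 0.11, adjusted p = 0.557, limma). Boc (ENSMUSG00000022687, chromosome 16, 44485049 to 44558897), a co-receptor that helps Ptch1 to bind ligand, was at 2277 and 2223 in control and at 3327 and 2919 in Yap CKO. Both knockout libraries lay above both controls, but the difference of 0.47 (95% interval 0.23 to 0.71) did not pass over all genes (adjusted p = 0.0746, limma). It passed with DESeq2 on the recovered reads (0.00378) and without control 1 (0.0165) or control 2 (0.0131), fits that called 2459 and 2458 genes against 454 with all libraries. It did not pass without Yap CKO 1 (0.513) or Yap CKO 2 (0.284). Its paralog Cdon (ENSMUSG00000038119, chromosome 9, 35421128 to 35507652) was at 1644 in the first control and 2560 in the second, against 2095 and 1887 in the knockouts. The controls enclosed both knockout values, and the log2 difference was -0.05 (95% interval -0.53 to 0.44). Control 2, the highest in Cdon, was also the library with the most heart muscle RNA, and without it the difference was 0.27. The part of heart tissue in this value was not tested.

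The GLI factors did not follow Shh. Gli1 (ENSMUSG00000025407, chromosome 10, 127329882 to 127341974), an activator that is transcribed in response to the signal, was at 3177 and 2811 in control and at 2856 and 2999 in Yap CKO. The groups overlapped, with means of 2994 ± 258 and 2928 ± 101 (SD, n = 2), a log2 difference of -0.03 (0.03 under scaling to equal totals) and an adjusted p of 0.901 (limma). The interval of -0.27 to 0.21 lies apart from those of Shh, Hhip and Ptch1. Gli2 (ENSMUSG00000048402, chromosome 1, 118834132 to 119053619), the main activator at the start of the response, was at 1579 and 1615 in control and at 1673 and 1342 in Yap CKO (log2 difference -0.09, interval -0.39 to 0.21). Gli3 (ENSMUSG00000021318, chromosome 13, 15463235 to 15730026), the main source of GLI repressor, was at 3617 and 3459 in control and at 4168 and 4147 in Yap CKO. Both knockout libraries were above both controls by a small margin, 0.23 on the log2 scale (interval 0.03 to 0.44), which did not pass (adjusted p = 0.221). Per read of Gli2 there were 2.29 and 2.14 reads of Gli3 in control and 2.49 and 3.09 in Yap CKO. RNA levels do not show how much of Gli2 or Gli3 protein was in the activator or the repressor form.

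Groups that lie apart are frequent with 2 libraries each. Of the 9 genes 3 lay wholly lower and 2 wholly higher in Yap CKO, and the same held for 25.6% and 25.2% of all tested genes. The calls of Shh, Hhip and Ptch1 ended when either knockout library was left out, and held without either control. In such fits the lone sample is assumed to vary like the other group. Over all genes, too, far fewer passed without a knockout library and far more without a control. The log2 change then ranged from -2.21 to -1.51 for Shh, from -2.26 to -1.46 for Hhip and from -0.89 to -0.61 for Ptch1. All 3 calls also ended without the filter on low values (0.077, 0.0881 and 0.121 for Shh, Hhip and Ptch1) and without the intensity trend (0.114, 0.126 and 0.167). Those fits called 56 and 6 genes over all genes, against 454 with both. The call of Ptch1 further ended under equal totals (0.0547), with edgeR's quasi-likelihood test on the recovered reads (0.0523) and with the replicate number as a block (0.0622).

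Ratios of reads within a library do not depend on the scaling between libraries, and they set the targets against the ligand. These ratios were chosen after the values had been seen, and they are given with no test. Hhip had 3.89 and 3.73 reads per read of Shh in the controls, and 3.71 and 3.96 in the knockouts. This ratio was thus nearly the same in all 4 libraries, also between the knockouts, where both genes were lower in Yap CKO 1. Ptch1 had 9.52 and 9.65 reads per read of Shh in control, and 24.0 and 17.9 in Yap CKO. For Gli1 the ratio to Shh was 2.97 and 3.10 in control and 13.5 and 8.70 in Yap CKO. The 3 classical targets thus ranged from a fall as large as that of Shh (Hhip) to no called difference (Gli1). Within the response genes, Hhip had 1.31 and 1.20 reads per read of Gli1 in control and 0.274 and 0.456 in Yap CKO, and Ptch1 had 3.20 and 3.11 against 1.78 and 2.06. Per read of Smo, the protein it restrains, Ptch1 had 1.99 and 1.83 reads in control and 1.06 and 1.43 in Yap CKO.

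**Figure D3:**
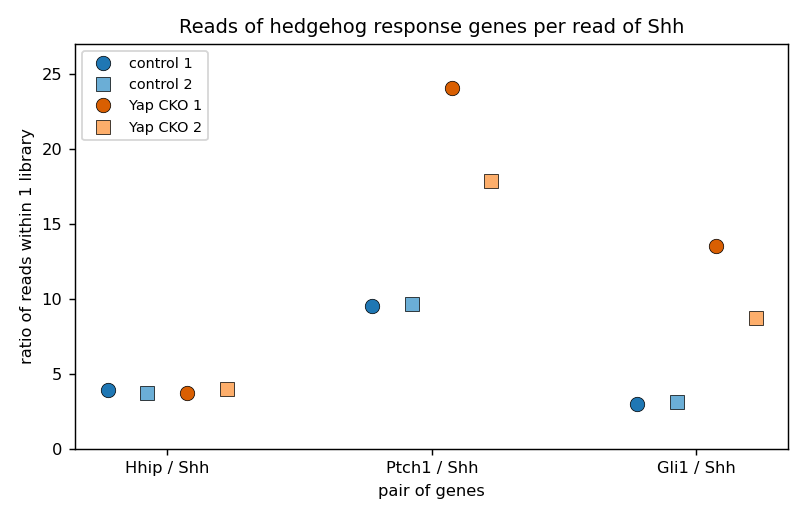
Reads of Hhip, Ptch1 and Gli1 per read of Shh within each library (vertical axis from 0, 1 point per library). Hhip keeps a ratio of 3.71 to 3.96 in all libraries, while Ptch1 goes from 9.52 and 9.65 in control to 24.0 and 17.9 in Yap CKO and Gli1 from 2.97 and 3.10 to 13.5 and 8.70.

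The order of the 9 genes by level changed with these falls. Levels were again compared as normalized counts per kilobase. In both controls Smo (881 per kb as a mean of 2) was highest, followed by Ptch1 (667), Gli1 (599) and Boc (506). Hhip (416), Gli3 (369) and Shh (347) came next, with Cdon (273) and Gli2 (233) lowest. Neighbours whose ranges overlapped between the controls were Ptch1 and Gli1, Hhip and Gli3, and Gli3 and Shh, and Cdon lay below Shh and Gli2 in control 1 and above both in control 2. In both knockouts Smo (809) was again highest, then came Boc (702) and Gli1 (586). Gli3 (434) and Ptch1 (397) were close and changed places between the libraries. Cdon (258) and Gli2 (220) followed, and Hhip (118) and Shh (97.7), whose ranges overlapped, were the lowest of the 9 in both knockout libraries.

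Genes with the profile most like that of a member were sought among 11560 other protein-coding genes with a mean of at least 100, by the root mean square difference of mean-centred log2 values over the 4 libraries. Nearest to Shh were the cadherin gene Cdh4 (0.024), Hhip (0.041), BC005561 (0.054), Entpd3 (0.057), the semaphorin gene Sema3e (0.126) and the transcription factor gene Tbx1 (0.126). Hhip was thus the second nearest gene to Shh. The genes nearest to Hhip were Entpd3 (0.027), Shh (0.041), Cdh4 (0.043), Tbx1 (0.086), BC005561 (0.089) and Sema3e (0.096). Cdh4, for example, was at 376 and 306 in control and at 74.0 and 119 in Yap CKO. Nearest to Ptch1 were Ikzf2, Cmpk2, Rtl10, 6030408B16Rik and Aatk, at 0.003 to 0.037. Those nearest to Gli1 were Tmod3, Tbc1d12, Mgme1, Adh5 and Cttnbp2, at 0.008 to 0.011, all of them near-level genes. With 4 libraries a small distance says only that the values run alike.

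Beyond the 9 genes, 35 others that make, release, receive or relay the signal were examined, and 33 of them passed the filter. Of these 0 fell and 0 rose by limma, with a median log2 change of 0.018, where 1.15% of all tested genes fell and 1.19% rose. At such shares 0 calls among 33 genes does not set them apart from all genes. At an unadjusted p under 0.05, 2 were lower and 2 higher (limma), edgeR called 0, and DESeq2 called 1 lower. Without control 1 the falls were 3 and the rises 1, where 6.17% of all tested genes fell and 6.46% rose. Without control 2 they were 1 and 3, where 6.48% fell and 6.14% rose. None passed without Yap CKO 1 or without Yap CKO 2, fits in which 0.0103% and 0.0359% of all tested genes passed. Gpc3, a glypican that binds hedgehog ligand at the cell surface, was at 10473 and 10839 in control and at 8379 and 7703 in Yap CKO (log2 difference -0.41, adjusted p = 0.095, limma). Both knockout libraries lay below both controls, and Gpc3 was the gene that DESeq2 called (adjusted p 0.00286). Lrp2, an endocytic receptor that takes up Shh, was at 349 and 441 against 313 and 303 (-0.35, adjusted p = 0.291, limma). Gas1, a co-receptor anchored in the membrane, was at 1051 and 1540 in control and at 1528 and 1248 in Yap CKO (log2 difference 0.12). Scube3, of the family of secreted proteins that help to free hedgehog ligand from the sending cell, was at 487 and 639 in control and at 881 and 773 in Yap CKO (0.56, adjusted p = 0.128, limma). None of the 19 genes for GLI processing passed (limma; 2 at an unadjusted p under 0.05, Prkaca and Btrc, and 0 by edgeR or DESeq2). Sufu, which holds GLI proteins in the cytoplasm, was at 1817 and 1865 against 1661 and 1597 (-0.18, adjusted p = 0.347). Prkaca, the kinase subunit that marks GLI proteins for cutting, differed by -0.39 (adjusted p = 0.151), and Btrc, the ubiquitin ligase subunit that reads those marks, by 0.33 (adjusted p = 0.191).

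Among 18 genes listed as targets of the pathway in lung or gut mesenchyme and other tissues, 16 passed the filter. Of these 2 fell, 1 rose and 13 did not pass, with 12 lower and 4 higher and a median log2 change of -0.25. Among all tested genes 1.15% fell and 1.19% rose, with 9858 lower and 9614 higher. Without control 1 there were 7 falls and 1 rise, where 6.17% of all tested genes fell and 6.46% rose. Without control 2 there were 6 falls and 3 rises, where 6.48% fell and 6.14% rose. Without Yap CKO 1 or Yap CKO 2 there were none, where 0.0103% and 0.0359% of all tested genes passed. Mycn, which drives proliferation and is also a gene of the epithelial tips, fell from 849 ± 139 to 352 ± 9.70 (-1.26 ± 0.14, adjusted p = 0.0146, limma). Igf1, a growth factor gene of the mesenchyme, fell from 5343 ± 931 to 2440 ± 303 (-1.12 ± 0.15, adjusted p = 0.0213). Both of these calls, Mycn and Igf1, ended when low genes were kept (0.0603 and 0.0788), when the intensity trend was dropped (0.0993 and 0.123), and when Yap CKO 1 (0.225 and 0.267) or Yap CKO 2 (0.144 and 0.133) was left out. Bmp4, which both the tip epithelium and the mesenchyme express, went the other way, from 1085 ± 16.6 to 1537 ± 24.2 (0.50 ± 0.09, adjusted p = 0.0483), a call that ended with the replicate block and under median ratio scaling. It also ended under the settings that ended those of Mycn and Igf1 (adjusted p 0.116 to 0.437).

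The 3 forkhead genes of the list, a family that hedgehog signals keep on in foregut mesenchyme, did not pass limma's test. Foxl1 was at 373 and 305 in control and at 123 and 181 in Yap CKO (-1.17, 95% interval -1.71 to -0.64, adjusted p = 0.0554, limma). Foxf1 was at 2775 and 2705 in control and at 2056 and 2218 in Yap CKO (-0.36, interval -0.58 to -0.14, adjusted p = 0.105). Both lay wholly lower in Yap CKO, as 25.6% of all tested genes did, and DESeq2 called both (0.00156 for Foxl1 and 0.0325 for Foxf1, adjusted p). Foxf2 overlapped between the groups, at 1625 and 1418 against 1482 and 1363 (-0.10, adjusted p = 0.692, limma). Per read of Shh there were 0.349 and 0.337 reads of Foxl1 in control and 0.582 and 0.524 in Yap CKO.

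**Figure D4:**
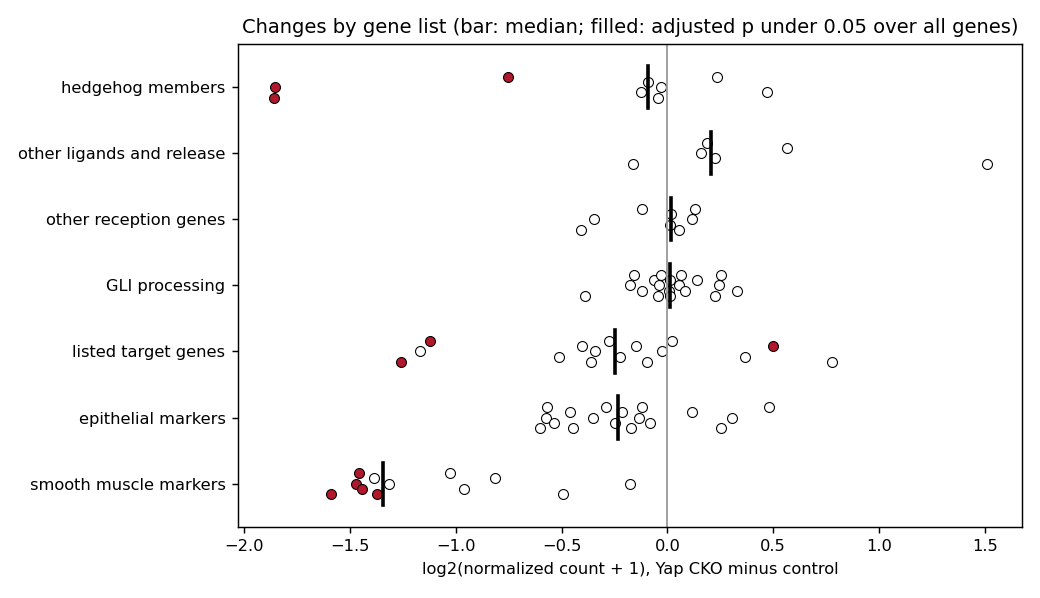
Log2 change, knockout minus control, of each tested gene of 7 lists on the horizontal axis, with a black bar at the median of the list and filled points for an adjusted p under 0.05 over all genes (limma, n = 2 per group). The 9 hedgehog genes have a median of -0.09 with 3 filled points on the left, the epithelial markers center on -0.23 with none filled, and the smooth muscle markers center on -1.35.

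Smooth muscle, which forms in the mesenchyme that receives hedgehog signals, moved with the lower group of these genes. All 12 smooth muscle markers were lower and 5 of them fell (limma; 5 by edgeR, 8 by DESeq2 and 4 under equal totals), beside 1.15% of all tested genes, with a median log2 change of -1.35. Among the 5 were Cnn1 (-1.38), Myocd (-1.46), Synpo2 (-1.47) and Actg2 (-1.59), genes of the contractile apparatus and its control. The falls were 0 with low genes kept or with the trend dropped, fits that called 56 and 6 genes over all genes against 454. These calls also ended without either knockout library, where few genes over all genes passed. With single libraries left out the median stayed between -1.40 and -1.03. The summed level of the 12 was 37317 and 39394 normalized counts in control against 19555 and 24351 in Yap CKO. As for Shh, Hhip and Ptch1, Yap CKO 1 was the lowest library in that sum. General mesenchymal markers had a median of -0.09, and 0 of 13 passed (limma; edgeR called 0 and DESeq2 4, and 6 had an unadjusted p under 0.05). Whether the amount of smooth muscle bears on the levels of Hhip and Ptch1 was not tested. Of 9 tested markers of cartilage, a tissue that uses Ihh, 7 were higher and 2 lower, with a median of 0.39, and the 10 listed genes summed to 4543 and 5109 in control and to 6492 and 5653 in Yap CKO. Of these 1 rose, the collagen gene Col11a2, from 396 ± 5.28 to 613 ± 32.1 (0.63, adjusted p = 0.0491, limma). Among all tested genes 1.19% rose. Of the 9, edgeR called 0 and DESeq2 2, and over all genes they called 404 and 1037. Limma called 0 of the 9 with low genes kept, with the trend dropped or under median ratio scaling. Over all genes those fits called 56, 6 and 437. The call of Col11a2 also ended without either knockout library, where few genes over all genes passed. With single libraries left out the median ranged from 0.31 to 0.55. The part of cartilage in the level of Ihh was not tested.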

How the data were processed

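RNA sequencing of whole lung was deposited as a table of normalized read counts, a signal that the authors had scaled before they deposited it. In each library 100% of values were whole multiples of 1 step within 0.001 reads, so whole reads were recovered and each library had been divided by 1 factor. Per the submitters' processing notes the build was mm10 and the tools included edgeR 3.18.1, DESeq 1.16.0, featureCounts 1.5.0-p1 and Bowtie2 2.2.9, in no stated role. Annotation and strand setting are not given in the sources. Symbols and exon lengths came from GENCODE M21 (52403 of 52636 identifiers). Genes with a mean of at least 10 were tested with limma 3.58.1 (R 4.3.3) on log2(normalized count + 1), with an intensity trend, 2 residual and 4.54 added degrees of freedom. A fold on that scale understates changes near 0. Alternatives used edgeR 4.0.16 and DESeq2 1.42.0 on the recovered reads, other scalings, filters and pseudocounts, a replicate block, and each library left out; the script was tested on simulated data. A count of 0 allows 3 reads, 2.80 to 3.51 normalized counts, for counting error only. Named genes are the 9 members, Yap1, and up to 6 called genes of each pathway or target list (otherwise the 2 smallest p). Dhh, Ihh, Sufu, Gas1, Foxf1 and Foxl1 were also named, with at most 4 genes of a marker list by smallest p. Foxf2, Xist, Epcam, Nkx2-1, Cdh1, Ret and the gut genes at 0 were chosen after their values were seen. The members and lists were chosen with earlier results of these data known. A gene of the pathway list is not reported here and stands outside the counts of that list. No protein sequences were used here.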

Additional observations from a re-analysis of the deposited data

How the results depend on the processing

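The number of genes called over all genes was 454, and it was 56 without the filter, 6 without the intensity trend, 1037 with DESeq2 and 2 to 2459 when single libraries were left out (2459 without control 1, 2458 without control 2, 2 without Yap CKO 1, 7 without Yap CKO 2). Rises made up 50.9% of calls as deposited and 62.0% under equal totals. Of the hedgehog genes 3 fell; 0 fell without the filter or the trend, and 0 to 3 with single libraries left out. None rose, against 1 (Boc) with DESeq2, and 0 to 1 with single libraries left out. Of the other pathway genes 0 fell and 0 rose, against 1 fall with DESeq2, and 0 to 3 falls and 0 to 3 rises with single libraries left out. Of the targets 2 fell and 1 rose. The falls became 0 without the filter or the trend, 6 with DESeq2 and 0 to 7 with single libraries left out. The rises became 0 without the filter, without the trend, under median ratio scaling and with the replicate block, 2 with DESeq2, and 0 to 3 with single libraries left out. The cause of these shifts was not tested.

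Among the 9 genes the sign changed for Cdon, Gli1 and Gli2, none of which was called under these settings. Cdon was at 0.017 and Gli1 at 0.032 under equal totals. With single libraries left out Cdon ranged from -0.36 to 0.27, Gli1 from -0.12 to 0.058 and Gli2 from -0.25 to 0.067 (log2 differences). A pseudocount of 5 and a filter at 50 changed no call of the 9 genes. TMM scaling gave the same results as the deposited scaling, so it could not change a call. Same-numbered libraries deviated in opposite directions (correlation across genes -0.364), so the numbers were not taken to pair the samples. The replicate block gave 342 calls and 2 falls among the 9 genes. The crossed pairing, added after seeing the data, gave 972 calls, with 1 rise (Boc) among the 9 genes, 1 rise among the other pathway genes and 4 falls among the targets. The difference of Shh from the epithelial markers was -1.49 with their median in place of the mean, and -1.99 to -1.33 with single libraries left out. Depth did not limit the 9 genes, and Ihh at 1 to 12 reads was too low for a comparison.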
